A study of Mus musculus with 5 samples.

Results

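The genes described here are 40 immediate early and stress response genes, chosen by symbol, of which 39 had a row in the table of 18018 genes and Cebpd was not analysed here. They fell into 5 groups by role: 6 AP-1 genes, 11 other inducible transcription factor genes (Cebpd among them), 5 mRNA decay and antiproliferative genes, 12 genes of signalling feedback and stress effectors, and 6 heat shock genes. The measurements came from hepatocytes of 5 male C57BL/6J littermates, 8 weeks old at the start, which received either regular chow (LFD, 2 mice) or high fat diet (HFD, 3 mice) during 12 weeks. The labels name no transgene, deletion or other treatment in either group. Cells were profiled by Drop-seq, in which droplets tag the mRNA of a cell with its barcode and every captured molecule with a random identifier (UMI), so that a UMI stands for 1 molecule. The diet comparison asks how single hepatocytes respond to a high fat diet.

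Immediate early genes are transcribed within minutes of a stimulus such as a growth factor, a cytokine or a stress, because the factors that switch them on are already present in the cell. Their products include AP-1, a dimer of Jun and Fos family proteins, together with proteins that end the response: phosphatases that switch off MAP kinases, and proteins that bind AU-rich mRNAs and recruit the deadenylases that start their decay. Heat shock genes follow another sensor, HSF1, which is released when unfolded proteins occupy the chaperones. In liver these genes are known for their induction after partial hepatectomy, in the acute phase response and during the isolation of hepatocytes.

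LFD mice 1 and 2 gave 132 and 84 cells with 446868 and 309050 UMIs, and HFD mice 1, 2 and 3 gave 5, 208 and 25 cells with 27903, 656803 and 58470 UMIs. Levels below are CPM, a gene's UMIs scaled to 1e+06 UMIs in each mouse. The upper limit for a gene with 0 UMIs, taken as 3 UMIs, was 4.57 CPM for HFD mouse 2, 51.3 CPM for HFD mouse 3 and 108 CPM for HFD mouse 1, by counting error alone. HFD mouse 1 differed from the rest, with medians of 6598 UMIs and 636 genes over its 5 barcodes, and 26 of the 39 members had no UMI there. Counts of members past the test are given with and without it. All 10 hepatocyte markers were found in every mouse (168160 to 202266 CPM summed), and 0 barcodes were shared between mice. Sinusoidal endothelial markers summed to 1075 CPM in HFD mouse 1, from 2 of the 10 markers, with Stab2, Lyve1 and Pecam1 among those at 0. They summed to between 12.9 and 19.8 CPM in the other mice. Haemoglobin genes summed to 502 and 291 CPM in HFD mice 1 and 3, against 3.24 to 13.7 CPM in the other 3 mice. Macrophage markers, whose cells also transcribe immediate early genes, summed to between 0 and 35.8 CPM, and to 0 in HFD mice 1 and 3. Their part in the results was not tested, apart from the recount without marker-bearing cells given below.

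To show the regulatory letters next to the genes, the 250 bases upstream of the transcription start are printed for the 3 members that passed the diet test in a comparison below and for 1 heat shock gene that did not. They come from RefSeq (GRCm38.p6), are written 5′ to 3′ along the strand of the gene, and have the matched motif in capitals. Positions count back from the start site. Of the 39 members, 31 had an entry, with 39 promoters between them.
Dusp1: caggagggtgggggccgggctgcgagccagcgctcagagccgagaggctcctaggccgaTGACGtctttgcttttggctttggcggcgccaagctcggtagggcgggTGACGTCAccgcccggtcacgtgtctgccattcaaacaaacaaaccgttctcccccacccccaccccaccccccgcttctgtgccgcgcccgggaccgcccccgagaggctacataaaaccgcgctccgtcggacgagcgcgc
Jun: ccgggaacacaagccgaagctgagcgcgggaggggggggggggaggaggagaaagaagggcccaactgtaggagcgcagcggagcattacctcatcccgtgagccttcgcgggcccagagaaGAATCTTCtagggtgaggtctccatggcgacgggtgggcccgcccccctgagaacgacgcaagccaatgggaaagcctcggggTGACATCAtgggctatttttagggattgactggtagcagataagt
Zfp36l1: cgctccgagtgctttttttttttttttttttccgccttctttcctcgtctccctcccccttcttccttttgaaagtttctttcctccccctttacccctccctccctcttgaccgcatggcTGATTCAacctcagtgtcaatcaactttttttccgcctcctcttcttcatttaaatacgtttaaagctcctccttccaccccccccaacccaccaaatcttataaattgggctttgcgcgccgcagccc
Hspa1b: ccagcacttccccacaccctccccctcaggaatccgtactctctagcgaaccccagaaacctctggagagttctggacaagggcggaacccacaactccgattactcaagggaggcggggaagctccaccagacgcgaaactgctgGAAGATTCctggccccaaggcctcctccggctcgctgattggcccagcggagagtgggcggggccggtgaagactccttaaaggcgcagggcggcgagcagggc

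The Dusp1 window (chr17:26508473-26508722, minus strand) held the cAMP response element TGACGTCA at -143 to -136 and a separate TGACG at -191 to -187. TGACGTCA was found in 1.55% of all 32851 promoter windows, and among the members in the windows of Dusp1 and Btg2. TGACG, which also lies inside TGACGTCA, was in 17.8% of all windows and in those of 13 members. The Jun window (chr4:95052223-95052472, minus strand) had TGACATCA at -45 to -38, the variant AP-1 site known for autoregulation of Jun, and GAANNTTC, a pair of heat shock units, at -128 to -121. TGACATCA was found in 2.93% of all windows and in those of Jun and Klf6. The Zfp36l1 window (chr12:80113014-80113263, minus strand) held TGATTCA at -129 to -123, a match to TGANTCA. This pattern takes any base at N and is looser than the AP-1 consensus TGA(C/G)TCA. It was matched in 6.75% of all windows and, among the members, in Klf9 (TGAATCA) and Zfp36l1, neither with C or G at N. The Hspa1b window (chr17:34959239-34959488, minus strand) held GAANNTTC at -104 to -97, as did 6.69% of all windows and those of Hspa1a, Jun and Sgk1. A longer heat shock element, in which a further GAA unit follows this pair, was in 0.466% of all windows and in 0 member windows. Motifs were searched on both strands, and a match describes letters in this window only. The promoter windows of Hspa1a and Hspa1b were the same at 247 of 250 bases, and their transcripts are near-identical, so reads of these genes could have been split or lost in counting and their values are uncertain.

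Members were sparsely detected. A total of 10 or more UMIs was reached by 32 of 39 members in HFD mouse 2, but by 4 of 39 in HFD mouse 1 and 6 of 39 in HFD mouse 3. Fosb, an AP-1 subunit, had 0 UMIs in every mouse, and Myc, the growth factor-induced transcription factor, had 1 UMI in all. Over the 39 members, summed levels were 1826 and 1919 CPM in LFD mice 1 and 2, and 5627, 2951 and 2702 CPM in HFD mice 1, 2 and 3. All HFD mice lay above both LFD mice in this sum, which is described without a test. In HFD mouse 1 the heat shock group made up 3225 CPM of it, and 1 gene and 2 barcodes made up most of that group, as given with the heat shock genes.

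**Figure D1:**
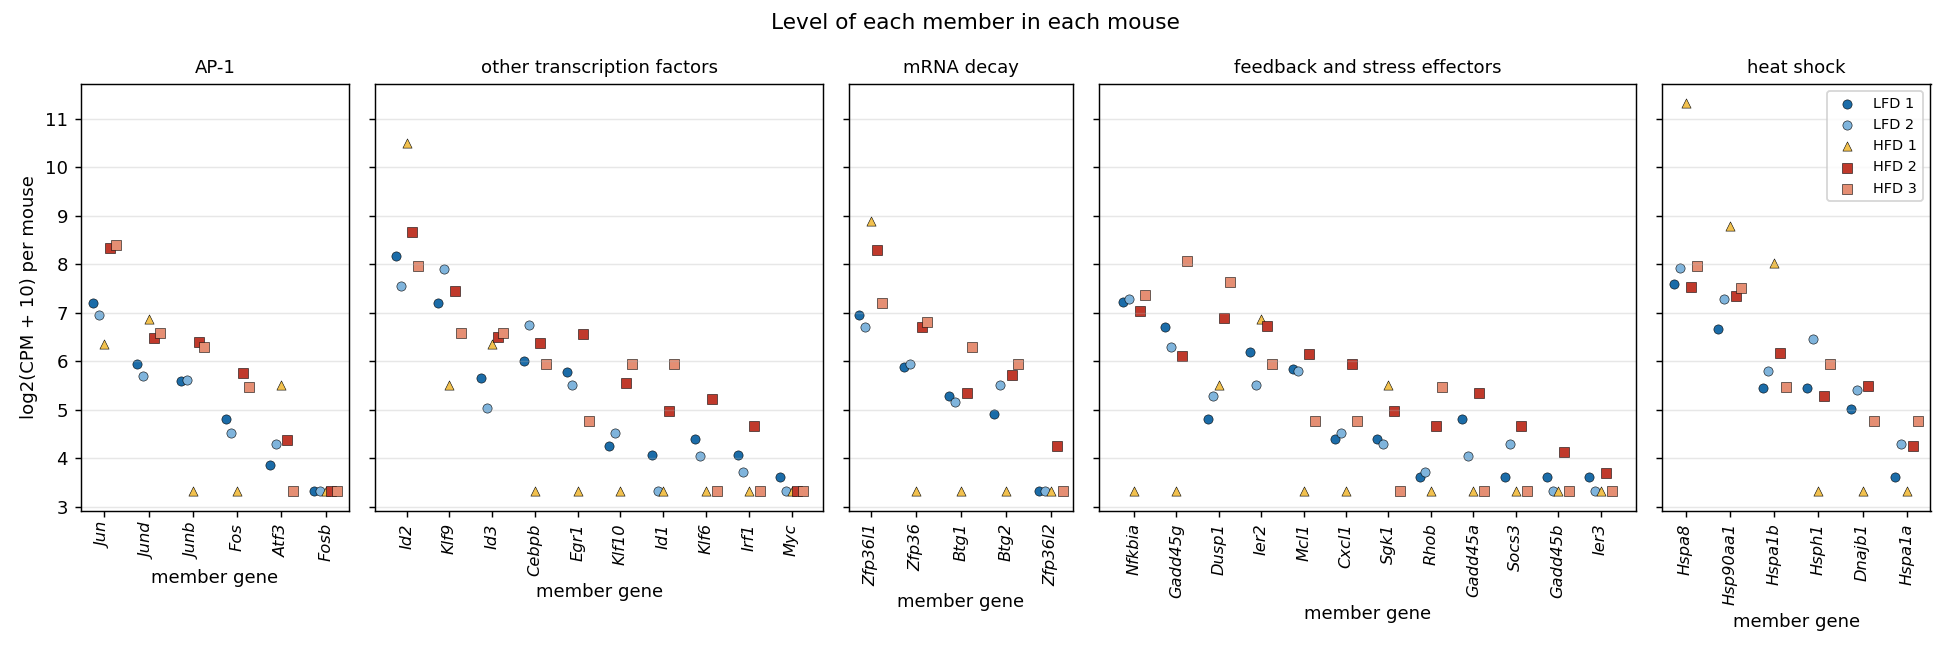
Level of each of the 39 members in each mouse, as log2(CPM + 10) on the vertical axis, by role; blue circles are LFD mice, red squares HFD mice 2 and 3, yellow triangles HFD mouse 1. Jun, Dusp1 and Id3 lie higher in HFD mice 2 and 3 than in the LFD mice, and the triangles of HFD mouse 1 sit at 0 CPM (the lowest position) for 26 of 39 members and far above the other mice for Hspa8 and Id2.

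Across the 5 mice, 0 of the 23 members with enough UMIs for the test passed it for diet, and without HFD mouse 1, 3 of 24 did, all higher in HFD mice: Dusp1, Jun and Zfp36l1. The test was limma voom on UMIs summed per mouse, with Benjamini-Hochberg adjustment over all genes tested and a threshold of 0.05. Over all genes, 0.221% (8 of 3614) passed in 5 mice and 3.38% (124 of 3670) in 4 mice, 1.28% in the higher direction. At an unadjusted p under 0.05, 4 members and 5.09% of all genes passed in 5 mice, and 12 members and 18.2% of all genes in 4 mice. With limma-trend, on CPM or on the mean of the deposited log values, 0 members passed in 5 mice as well. The log2 fold change of HFD over LFD was above 0 in 17 of 23 members in 5 mice, with a median of 0.60, against 43.7% of all genes and a median of -0.08. In 4 mice it was above 0 in 19 of 24, with a median of 0.71, against a median of -0.002 over all genes. The 17 were also 17 under scaling by total UMIs, but 12 with limma-trend on CPM. In 5 mice Fos, Klf10 and Dusp1 reached the filter of 32.4 CPM in HFD mice alone, so their direction was largely set by the filter. Fos and Klf10 did so in 4 mice as well. These genes are included in the counts above 0, and in those of levels and shares without overlap below.

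Dusp1 encodes the dual specificity phosphatase that inactivates MAP kinases after they have been activated (chr17:26505590-26562128 in GRCm38, minus strand, a model that reaches upstream of the start used for the printed window). It had 8 and 9 UMIs in LFD mice 1 and 2 (17.9 and 29.1 CPM) and 1, 71 and 11 UMIs in HFD mice 1, 2 and 3 (35.8, 108 and 188 CPM). Every HFD mouse lay above both LFD mice, although the value of HFD mouse 1 rests on 1 UMI. Its log2 fold change was 2.22 (SE 0.60) in 5 mice, with a limma voom adjusted p of 0.323, the lowest among the members. Without HFD mouse 1 it rose by 2.41 (SE 0.40, limma voom adjusted p 0.0024). Without the 23 cells in which markers of some other cell type reached 3 UMIs, it passed the test (log2 fold change 2.74, SE 0.33, limma voom adjusted p 0.0234). That recount left HFD mouse 1 with 1 of its 5 barcodes and 2793 UMIs, 1 of them of Dusp1. In that recount 0.0664% of all genes, 2 of 3012, passed.

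Jun, the AP-1 subunit that binds DNA as a partner of Fos or of itself (chr4:95049034-95052222, minus strand), had 61 and 35 UMIs in the LFD mice (137 and 113 CPM). It had 2, 205 and 19 UMIs in HFD mice 1, 2 and 3 (71.7, 312 and 325 CPM). HFD mice 2 and 3 were close to each other and well above both LFD mice, while HFD mouse 1, on 2 UMIs, lay below both LFD mice, so the groups overlapped. The log2 fold change was 0.90 in 5 mice, with a 95% interval from -0.30 to 2.10, and without HFD mouse 1 Jun rose by 1.31 (SE 0.22, limma voom adjusted p 0.0030).

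The other 3 AP-1 genes tested had higher levels in HFD mice 2 and 3 without passing. Jund, a more constantly expressed Jun family member, was at 51.5 and 42.1 CPM in LFD mice and at 107.5, 79.2 and 85.5 CPM in HFD mice 1, 2 and 3. The value of Jund in HFD mouse 1 rests on 3 UMIs. The groups of Jund did not overlap, as in 5 of 23 members in 5 mice. Over all genes, 8.88% had every HFD mouse above every LFD mouse. The other 4 members were Id3, Zfp36l1, Dusp1 and Hsp90aa1. In 4 mice 12 of 24 members were higher without overlap, against 20.6% of all genes. No member was lower without overlap in 5 or 4 mice, against 14.3% and 20.2% of all genes. Junb was at 38.0 and 38.8 CPM in LFD mice and at 0, 74.6 and 68.4 CPM in HFD mice, and Fos, the best known partner of Jun, at 17.9 and 12.9 CPM and at 0, 44.2 and 34.2 CPM. Both were higher in HFD mice 2 and 3 than in the LFD mice and had no UMI in HFD mouse 1, where the limit is 108 CPM. In 4 mice all 4 tested AP-1 genes had a log2 fold change above 0 (median 1.12), with limma voom adjusted p of 0.131 for Junb, 0.182 for Fos and 0.213 for Jund. Fos passed the filter only through its HFD levels, so its sign was largely set by the filter. In 5 mice the log2 fold changes were 0.53, 1.12 and 0.85 in that order, and the sign of Junb turned with limma-trend (-0.31) and without HFD mouse 3 (-0.18). Atf3, which dimerises with Jun proteins under stress, had 13 UMIs in all and was not tested, and HFD mouse 3 had none of them. Summed over the group, AP-1 was at 248 and 217 CPM in LFD mice and at 215, 521 and 513 CPM in HFD mice 1, 2 and 3.

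**Figure D2:**
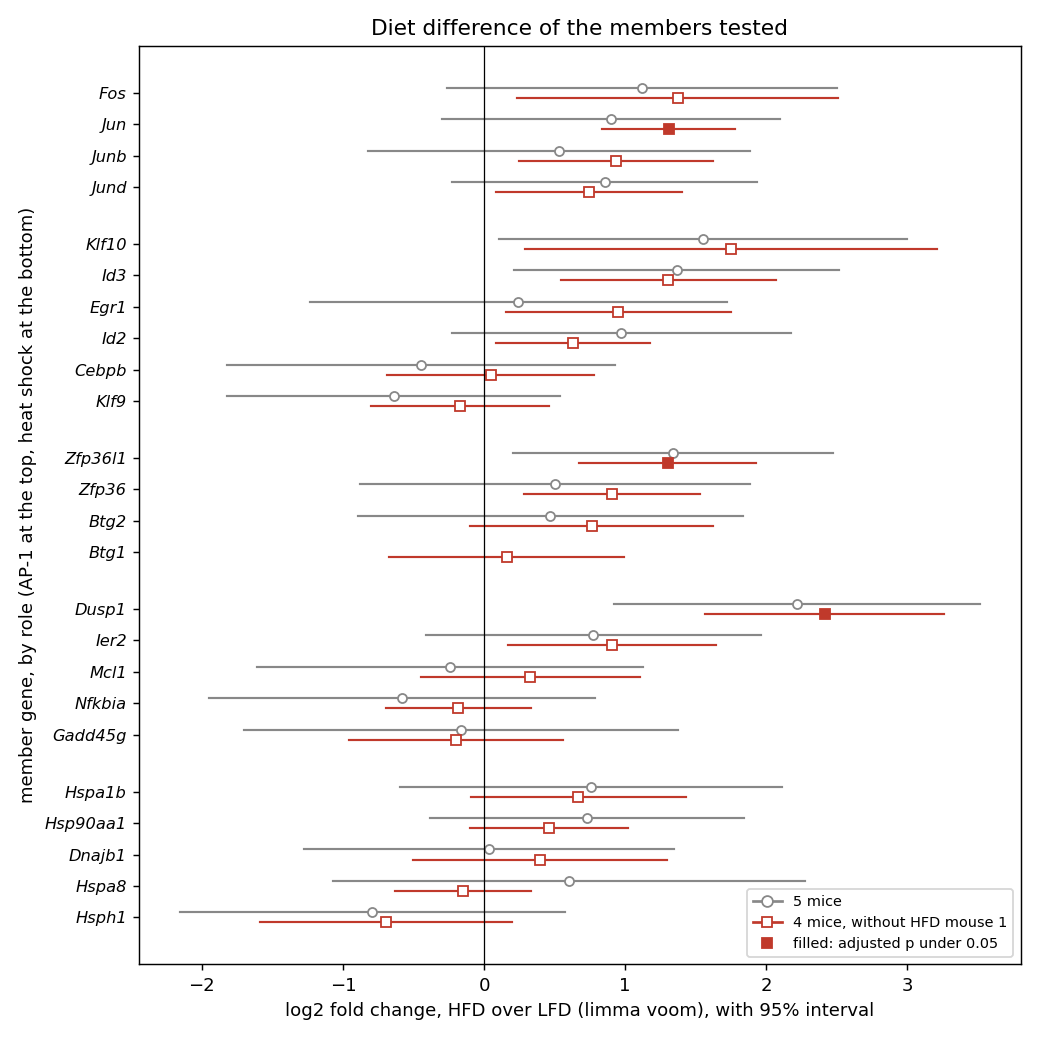
Log2 fold change of HFD over LFD for each member tested, from limma voom with its 95% interval; grey circles are all 5 mice and red squares the 4 mice without HFD mouse 1, filled where the adjusted p is under 0.05. Only the squares of Dusp1, Jun and Zfp36l1 are filled, while the intervals of the heat shock genes at the bottom include 0 in both comparisons.

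The other inducible transcription factors were mixed. Id2 and Id3 encode inhibitors that bind basic helix-loop-helix factors and keep them from DNA. Id3 was at 40.3 and 22.7 CPM in LFD mice and at 71.7, 80.7 and 85.5 CPM in HFD mice 1, 2 and 3. The groups of Id3 did not overlap, although the value of HFD mouse 1 rests on 2 UMIs. The log2 fold change of Id3 was 1.36 in 5 mice (SE 0.53, limma voom adjusted p 0.895) and 1.30 in 4 mice (SE 0.36, limma voom adjusted p 0.060). Id2 was at 277 and 178 CPM in LFD mice and at 1434, 396 and 239 CPM in HFD mice 1, 2 and 3, and HFD mouse 3 lay between the LFD mice. Of the 40 UMIs of Id2 in HFD mouse 1, 27 came from 1 barcode with 7481 UMIs and 469 genes. Klf9, a zinc finger factor known to be induced by glucocorticoid and thyroid hormone, was at 137 and 230 CPM in LFD mice and at 35.8, 164 and 85.5 CPM in HFD mice 1, 2 and 3. Cebpb, a basic leucine zipper factor of the acute phase response, was at 53.7 and 97.1 CPM in LFD mice and at 0, 73.1 and 51.3 CPM in HFD mice. Neither pattern passed, with log2 fold changes of -0.64 and -0.45 in 5 mice and of -0.17 and 0.05 in 4 mice. Egr1 and Klf10, named after their values were seen, had log2 fold changes of 0.95 (limma voom adjusted p 0.189) and 1.75 (limma voom adjusted p 0.185) in 4 mice, and of 0.24 and 1.55 in 5 mice. Egr1, the serum-induced zinc finger factor, was at 44.8 and 35.6 CPM in LFD mice and at 0, 83.7 and 17.1 CPM in HFD mice 1, 2 and 3, so HFD mice 2 and 3 lay on either side of the LFD mice.

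In the mRNA decay group, Zfp36l1 was the member that passed in 4 mice. It encodes a CCCH zinc finger protein that binds AU-rich elements (chr12:80107754-80113013, minus strand). It had 51 and 29 UMIs in LFD mice (114 and 93.8 CPM) and 13, 200 and 8 UMIs in HFD mice 1, 2 and 3 (466, 305 and 137 CPM). The groups did not overlap, but HFD mouse 3 exceeded LFD mouse 1 by less than the level of 3 UMIs. In HFD mouse 1, 9 of the 13 UMIs came from 1 barcode. The log2 fold change was 1.34 in 5 mice (SE 0.52, limma voom adjusted p 0.895), and without HFD mouse 1 Zfp36l1 rose by 1.30 (SE 0.30, limma voom adjusted p 0.0217). Zfp36, the tristetraprolin gene of the same family, was at 49.2 and 51.8 CPM in LFD mice and at 0, 94.4 and 103 CPM in HFD mice, with a log2 fold change of 0.50 in 5 mice and 0.91 in 4 mice (SE 0.30, limma voom adjusted p 0.113). Btg1 and Btg2, antiproliferative proteins that bind deadenylase subunits, had log2 fold changes of 0.16 and 0.76 in 4 mice, and neither passed. Zfp36l2 had 6 UMIs, all in HFD mouse 2. The whole group summed to 213 and 207 CPM in LFD mice and to 466, 481 and 359 CPM in HFD mice, so that every HFD mouse exceeded both LFD mice, which is given as a description.

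Among feedback and stress effectors other than Dusp1, 0 passed. Ier2, a nuclear immediate early protein, was at 62.7 and 35.6 CPM in LFD mice and at 107.5, 95.9 and 51.3 CPM in HFD mice (log2 fold change 0.77 in 5 mice and 0.91 in 4 mice, SE 0.35, limma voom adjusted p 0.174). Nfkbia, the inhibitor that retains NF-kappa B in the cytoplasm, was at 139 and 146 CPM in LFD mice and at 0, 120 and 154 CPM in HFD mice 1, 2 and 3. HFD mice 2 and 3 lay on either side of the LFD mice, and the log2 fold change was -0.58 in 5 mice and -0.18 in 4 mice, the latter with a 95% interval from -0.70 to 0.33. Gadd45g, of the family that activates stress kinases and binds PCNA, was at 94.0 and 68.0 CPM in LFD mice and at 0, 59.4 and 257 CPM in HFD mice, which spread more among themselves than from the LFD mice. Of the other 8 genes of the group, Mcl1, an antiapoptotic BCL2 relative, was tested and did not pass. Ier3, Gadd45a, Gadd45b, Cxcl1, Socs3, Rhob and Sgk1 had 3 to 44 UMIs each over all mice and were not tested.

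Of the 5 heat shock genes tested, 0 passed for diet in 5 or in 4 mice, and 0 had an unadjusted p under 0.05 (limma voom). Hspa8, the constitutive HSC70 chaperone, had 82 and 72 UMIs in LFD mice (184 and 233 CPM) and 71, 114 and 14 in HFD mice 1, 2 and 3 (2545, 174 and 239 CPM). HFD mice 2 and 3 lay on either side of the LFD mice, and HFD mouse 1 was more than 10 times higher than any of them. In HFD mouse 1, 47 and 23 of its 71 UMIs came from 2 barcodes with 6598 and 7481 UMIs but 636 and 469 genes. The log2 fold change was 0.60 in 5 mice (95% interval -1.07 to 2.27) and -0.15 in 4 mice (95% interval -0.63 to 0.34). Hsp90aa1, the inducible HSP90 isoform, was at 91.7 and 146 CPM in LFD mice and at 430, 152 and 171 CPM in HFD mice, with a log2 fold change of 0.73 in 5 mice and 0.46 in 4 mice (SE 0.27, 95% interval -0.10 to 1.02). The groups of Hsp90aa1 did not overlap, but HFD mouse 2 exceeded LFD mouse 2 by less than 3 UMIs stand for in LFD mouse 2 (9.71 CPM). In HFD mouse 1, 10 of the 12 UMIs of Hsp90aa1 came from 1 barcode. Hspa1b, an inducible HSP70 gene, was at 33.6 and 45.3 CPM in LFD mice and at 251, 62.4 and 34.2 CPM in HFD mice, and all 7 of its UMIs in HFD mouse 1 came from 1 barcode. Hsph1, a nucleotide exchange factor for HSP70, was at 33.6 and 77.7 CPM in LFD mice and at 0, 28.9 and 51.3 CPM in HFD mice. In 4 mice the group's 5 tested genes had log2 fold changes from -0.70 to 0.67, 3 of them above 0, and a median of 0.40. That median lay below those of AP-1 (1.12), mRNA decay (0.83) and other transcription factor genes (0.79), and above that of feedback genes (0.33). In 5 mice the heat shock median was 0.60. The medians there were 0.88 for AP-1, 0.61 for other transcription factor genes, 0.50 for mRNA decay and -0.16 for feedback genes. Differences between these medians were not tested.

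The 4-mouse calls depended on which HFD mice were included. HFD mouse 2 alone against the LFD mice, added after the data were seen, gave 5 members past the threshold of 22 tested (Jun, Id2, Id3, Zfp36l1 and Dusp1), all higher, where 5.21% of all genes passed and 2.45% did so in the higher direction. That comparison holds 1 HFD mouse, so its spread came from the LFD mice only. Its counts describe how HFD mouse 2 differed from the LFD mice and cannot separate diet from the single mouse. With HFD mice 1 and 3 only, 0 of 11 members and 0 of all 2097 genes tested passed. With HFD mice 1 and 2 only, 0 of 22 members and 0 of all 3609 genes passed. As no gene passed in either, these counts are not particular to the members. The raw reads of HFD mouse 3 carry a name of another form than those of the other mice. Within the mice of the same name form, LFD mice 1 and 2 and HFD mice 1 and 2, the members' median log2 fold change was -0.11, against -0.22 over all genes. With no batch named in the labels, a run and the single mouse cannot be told apart.

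Of 44 tested genes in the lists of related pathways outside the members, 1 passed in 4 mice (2.27%), against 3.38% of all genes. The deadenylation and decay machinery list had 7 of 22 genes tested in 4 mice, with 1 higher and 0 lower. That gene was Tob1, a BTG family relative that bridges mRNA-bound proteins to the deadenylase, at 107 and 129 CPM in LFD mice and at 179, 231 and 274 CPM in HFD mice 1, 2 and 3 (log2 fold change 1.02, SE 0.23, limma voom adjusted p 0.0198). Tob1 did not overlap between groups. All 7 genes of the list were above 0 in 4 mice (median 0.70) and 6 of 7 in 5 mice, where 0 passed. In 4 mice, 0 passed of 18 other heat shock chaperones tested (10 above 0, median 0.06), of 7 other AP-1, ATF, CREB and MAF genes, of 6 upstream kinases and factors, of 5 glucocorticoid-induced genes and of 1 other MAPK and cytokine feedback gene. In 5 mice the 17 other chaperones tested had a median of -0.02.

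The share of cells with at least 1 UMI of a member depends on depth, so each cell was thinned to 1728 UMIs by calculation and shallower cells were left out. That kept 114 and 74 cells of LFD mice 1 and 2 and 134 and 14 cells of HFD mice 2 and 3, and left out 18, 10, 74 and 11. The labels call all cells hepatocytes, so no group of another cell type could give the background of free RNA for these shares. Jun was found in 17.8% and 15.2% of LFD cells and in 36.8% and 39.7% of the cells of HFD mice 2 and 3. Unthinned, the shares were 30.3%, 31.0%, 52.4% and 48.0%. Dusp1 was found in 2.82% and 4.37% of LFD cells and in 15.01% and 30.7% of the cells of HFD mice 2 and 3, or 6.06%, 9.52%, 25.5% and 28.0% unthinned. For both genes HFD mice 2 and 3 lay above the LFD mice either way, so a larger share of cells, not only more UMIs in a few, went with the higher CPM. The highest number of UMIs in 1 cell was 11 for Jun, in HFD mouse 2, against 4 in each LFD mouse.

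Zfp36l1 was found in 17.5% and 13.5% of LFD cells, in 37.6% of cells of HFD mouse 2 and in 16.3% of those of HFD mouse 3, which lay between the LFD mice. Id2 was found in 33.6% and 27.8% of LFD cells and in 49.5% and 45.3% of cells of HFD mice 2 and 3, but unthinned in 44.0% of cells of HFD mouse 3 against 47.0% of LFD mouse 1. The heat shock genes showed no such gap: Hspa8 was found in 30.2% and 32.4% of LFD cells and in 27.0% and 33.3% of cells of HFD mice 2 and 3, and Hsp90aa1 in 16.4%, 24.5%, 23.9% and 27.0%. Nfkbia, at 20.3% in both LFD mice and 16.7% and 21.1% in HFD mice, showed none either. Of the 24 members tested in 4 mice, 10 had both HFD mice above both LFD mice at equal depth (Jun, Junb, Jund, Fos, Id2, Id3, Klf10, Zfp36, Ier2 and Dusp1), against 17% of the 3670 genes tested. Unthinned, 7 of 24 did, against 6.05% of these genes. In the 5 cells of HFD mouse 1, the shares at equal depth were 16.5% for Jun, between the LFD mice, and 12.4% for Dusp1, 43.3% for Zfp36l1 and 73.7% for Id2, above both. With 2 against 2 mice an exact permutation test cannot reach 0.05, and none was run on shares.

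**Figure D3:**
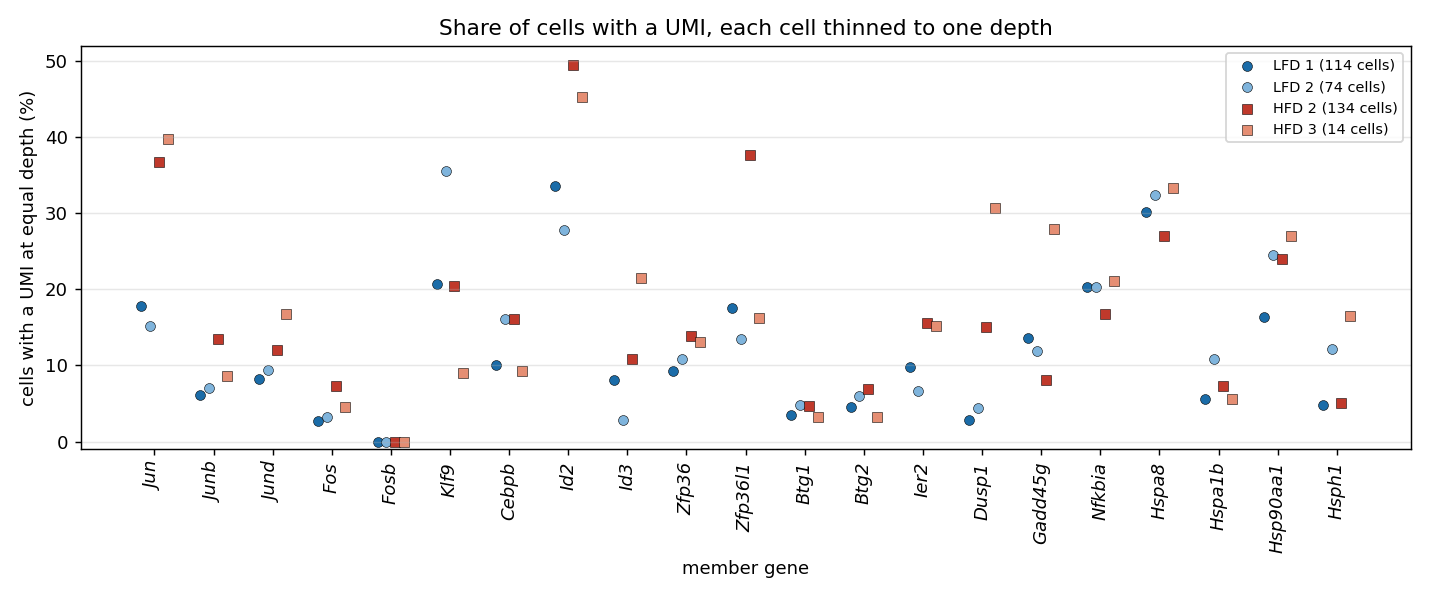
Share of cells with at least 1 UMI of each named member (vertical axis, percent) after thinning every cell to 1728 UMIs; blue circles are LFD mice and red squares HFD mice 2 and 3. Jun and Dusp1 are separated by diet, at 15.2% to 17.8% against 36.8% to 39.7% for Jun, while Hspa8 and Nfkbia are not.

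Counted without thinning, 68 of 132 and 42 of 84 cells of LFD mice 1 and 2 held no UMI of any AP-1 gene, against 65 of 208 and 10 of 25 in HFD mice 2 and 3 and 2 of 5 in HFD mouse 1. The cells of these HFD mice were shallower, with medians of 2181.5 and 1863 UMIs against 2734 and 3075.5 in the LFD mice. At least 3 AP-1 genes in 1 cell were found in 3.79% and 4.76% of LFD cells and in 7.69% and 8.00% of the cells of HFD mice 2 and 3. For heat shock genes the cells with none went the other way, 29.5% and 22.6% in LFD mice and 32.7% and 48.0% in HFD mice 2 and 3, in the direction of the depths.

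Co-detection asks if 2 genes turn up in the same cell more often than the product of their shares gives. It was calculated at equal depth in the 3 mice with at least 20 cells left, over genes found in at least 2% of them, and the numbers of cells expected with both genes were summed over the pairs of a group. Over all pairs of genes the ratio of observed to expected was 1.00 in both LFD mice and 1.01 in HFD mouse 2. Over all pairs of members it was 1.13, 1.10 and 1.13 in LFD mice 1 and 2 and HFD mouse 2. The sum over all genes gives most weight to genes found in many cells and is not matched to the shares of the members. The median ratio of single pairs was 0.88, 0.84 and 0.92 over all genes, against 1.07, 1.00 and 1.11 over members. AP-1 genes had summed ratios of 1.22, 1.97 and 1.09, which for LFD mouse 2 means 6.14 cells with both genes against 3.11 expected, over 6 pairs. The feedback group had ratios of 1.49, 1.48 and 1.28, the mRNA decay group 1.04, 0.70 and 1.11, and the heat shock group 0.92, 1.06 and 1.19. At this depth the summed ratios of feedback and AP-1 genes were thus above 1 in all 3 mice, and those of mRNA decay and heat shock genes in 2 of 3. At 1000 UMIs per cell feedback genes were again above 1 in all 3 mice (1.28, 1.41 and 1.02), but AP-1 genes had a ratio of 0.74 in LFD mouse 1 (1.24 cells against 1.68 expected), with 1.74 and 1.45 in the others. Of these 3 mice, only HFD mouse 2 then had mRNA decay genes above 1 (0.84, 0.78 and 1.40). HFD mouse 3, with 24 cells left at 1000 UMIs, had summed ratios of 1.42 for feedback and 1.21 for AP-1 genes. Its ratio for mRNA decay genes was 1.54, on 1.25 cells against 0.81 expected. Over the other transcription factors the ratios were 0.99, 0.99 and 1.00.

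Of 171 pairs of members with at least 3 cells expected over the 3 mice, 69.6% had a summed ratio above 1, against 51.8% of 4228432 pairs over all genes. In every one of the 3 mice 37 pairs (21.6%) were above 1 and 9 (5.26%) below, against 13.7% and 12.6% of the pairs over all genes. Pairs that share a gene are not independent, and cells are not replicates, so no p is given. Jun and Fos were found together in 7.70 cells against 4.48 expected, with ratios from 1.38 to 3.76 in the 3 mice. Jun and Junb had a ratio of 1.32, and Junb and Jund 0.54. The highest ratios, named after the values were seen, were those of Egr1 with Dusp1 (6.25 cells against 3.02) and of Junb with Egr1 (6.33 cells against 3.15). The ratio of Egr1 and Zfp36 was 1.83 and that of Egr1 and Ier2 was 1.79. Jun and Zfp36l1, both called higher without HFD mouse 1, were found together in 25.1 cells against 23.6 expected, a ratio of 1.06, and the ratio of Jun and Dusp1 was 1.12.

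**Figure D4:**
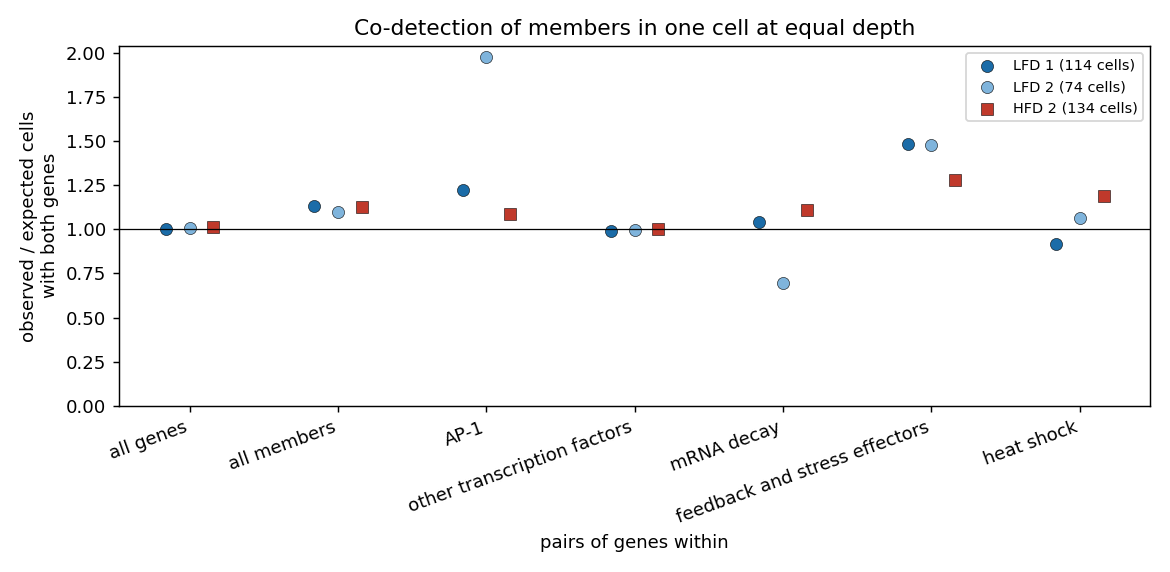
Ratio of observed to expected cells with both genes of a pair, summed over the pairs within each group (vertical axis; the line marks 1), in the 3 mice with at least 20 cells at 1728 UMIs. All genes sit at 1.00 to 1.01, feedback genes at 1.28 to 1.49, and AP-1 genes spread from 1.09 to 1.97.

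For the lobule axis, which runs from the portal triad, where blood enters, to the central vein, each mouse's cells were put in order of pericentral against periportal transcripts and divided at the median into a portal and a central side. The 4 mice with at least 20 cells were used. Glul, the glutamine synthetase gene of cells at the central vein and a gene of the score, was at 40.6 and 268 CPM on the portal and central sides of LFD mouse 1. It had no UMI on either side of HFD mouse 3. Cyp2f2, a periportal cytochrome P450 gene in the score, was higher on the portal side of each of the 4 mice, for example 1663 against 922 CPM in LFD mouse 1. Both genes helped to order the cells, so their side differences are no independent check of the axis.

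Along this axis 1 of 14 members tested passed, Gadd45g, which was lower on the central side (limma voom with mouse as a block). Over all genes outside the score 6.21% (121 of 1947) passed, 57 (2.93%) toward the central and 64 (3.29%) toward the portal side. Under scaling by total UMIs the split was 74 and 43, and the median log2 difference of all genes moved from -0.003 to 0.10, with Gadd45g still the member that passed. Gadd45g (chr13:51846678-51848468, plus strand) was at 129 CPM on the portal and 39.8 CPM on the central side in LFD mouse 1, and at 75.4 and 58.5 CPM in LFD mouse 2. In HFD mouse 2 it was at 90.04 and 33.6 CPM and in HFD mouse 3 at 325 and 250 CPM. The portal side was higher in 4 of 4 mice, and the log2 difference of central over portal was -1.21 (SE 0.31, limma voom adjusted p 0.0220). The call was lost with HFD mouse 1 added (adjusted p 0.755), with limma-trend (0.254), without LFD mouse 1 (0.151) and without HFD mouse 2 (0.203), and Gadd45g had too few UMIs for the test between the outer parts of the axis. In LFD mouse 1 the portal cells were deeper than the central cells, with medians of 3531.5 and 2143.5 UMIs. In HFD mouse 2 they were about equal, at 2129 and 2192.5 UMIs.

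Among the 14 members tested, Id2 was the other one higher on the portal side of all 4 mice, with 295 and 250, 209 and 139, 470 and 333, and 325 and 166 CPM on the portal and central sides of LFD mice 1 and 2 and HFD mice 2 and 3. Its log2 difference was -0.55 (SE 0.18, limma voom adjusted p 0.092). It passed without HFD mouse 3 (-0.53, limma voom adjusted p 0.0452) and between the upper and lower parts of the axis with the middle cells left out (-0.78, limma voom adjusted p 0.0177). In those comparisons 7.84% and 12.8% of all genes passed. Gadd45g and Id2 were thus 2 of 14 members higher on the portal side in 4 of 4 mice, against 8.12% of all genes tested. Btg1, with too few UMIs for the test, was also higher on the portal side in all 4 mice. Hsp90aa1 was the 1 member of 14 higher on the central side in 4 of 4 mice, against 15.3% of all genes, with a log2 difference that did not pass (0.35, limma voom adjusted p 0.538).

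Jun showed no common direction along the axis, at 148 and 120 CPM on the portal and central sides in LFD mouse 1, 92.8 and 139 in LFD mouse 2, 347 and 283 in HFD mouse 2, and 362 and 374 in HFD mouse 3. On each side, HFD mice 2 and 3 lay above both LFD mice. Zfp36 was higher on the portal side in 3 of 4 mice (log2 difference -0.64, SE 0.32, limma voom adjusted p 0.307), and LFD mouse 2 was the exception. Over the 14 members the median log2 difference was -0.07, with 7 above and 7 below 0. Outside the members, 0 of 12 other heat shock chaperones, 0 of 4 other AP-1, ATF, CREB and MAF genes, and 0 of 3 genes in each of the upstream, decay machinery and glucocorticoid lists passed along the axis.

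A side difference that differs by diet was not called for any member. The interaction, the side difference in HFD less that in LFD mice, was below 0 in 13 of 14 members (median -0.43). Over all genes 48.4% were above 0, with a median of -0.02. With HFD mouse 1 added, the medians were -0.55 over the members and -0.43 over all genes. This lean of the members was not tested. The lowest unadjusted p was that of Id3, with an interaction of -2.39 on the log2 scale (SE 0.73, limma voom adjusted p 0.773). Id3 was at 14.8 and 79.7 CPM on the portal and central sides of LFD mouse 1 and at 5.80 and 43.9 CPM in LFD mouse 2, values that rest on 4 and 14 and on 1 and 6 UMIs. In HFD mouse 2 it was at 83.4 and 78.4 CPM and in HFD mouse 3 at 72.3 and 125 CPM. Over all genes 0.103%, 2 of 1947, passed this test, and at an unadjusted p under 0.05 there were 85 genes, 4.37%, of which 1 was a member.

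**Figure D5:**
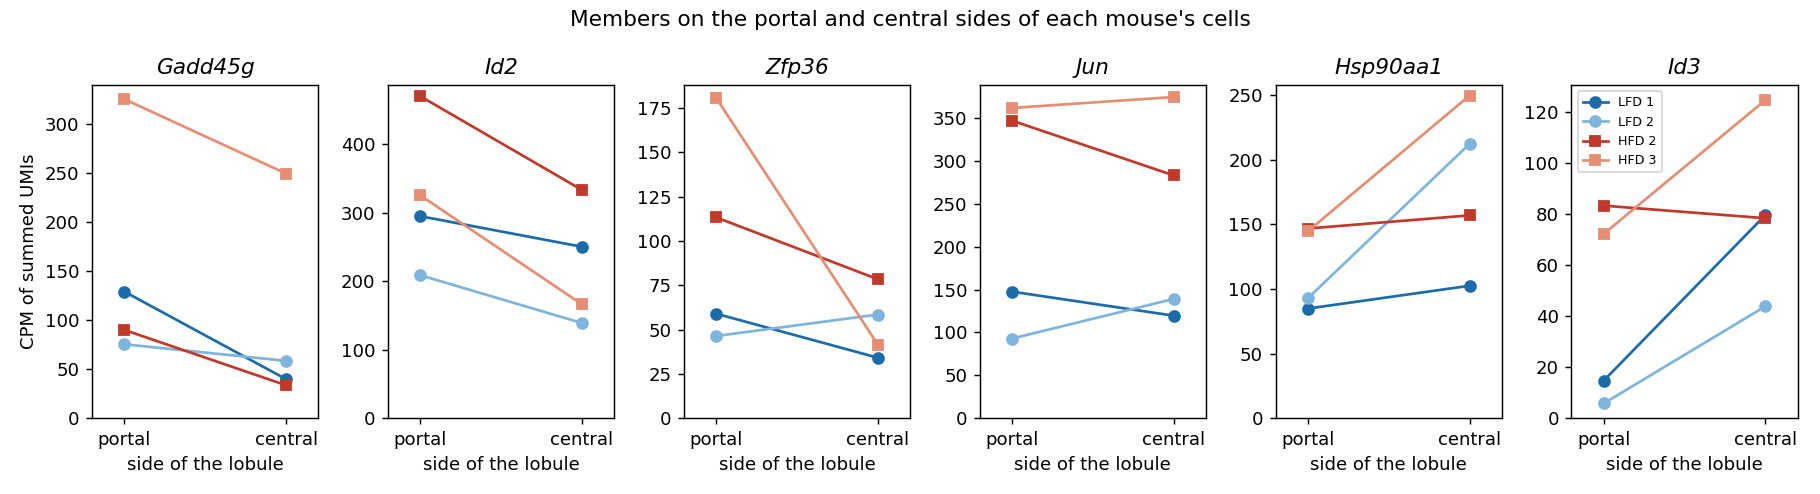
CPM of 6 members on the portal and central side of each mouse's cells (lines join the sides of a mouse; blue circles LFD, red squares HFD mice 2 and 3). Gadd45g and Id2 are lower on the central side in all 4 mice, Hsp90aa1 is higher there in all 4, and Jun goes either way.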

How the data were processed

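Drop-seq was run on hepatocytes of 5 mice (2 LFD, 3 HFD), and cells were assigned to mice by the prefix of their column, matched to the titles. STAR 2.6.0a and the build mm10 are named in the submitters' processing notes. Not given in the sources used here are the cell filter, doublet removal, gene annotation, strand and treatment of shared reads. The deposited table used for all measurements holds the natural log of 1 plus UMIs per 10000 UMIs of the cell, as its values show. Dividing by the smallest step in a cell gave whole numbers for 100% of nonzero values (tolerance 0.001), so UMIs were recovered, 1499094 in 454 cells. A second deposited table, named for the smoothing method MAGIC and taken to be in the same natural log unit, served as an alternative for direction only.

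UMIs were summed per mouse, or per mouse and lobule side, and compared by limma voom (R 4.3.3, limma 3.58.1) after trimmed-mean scaling, with Benjamini-Hochberg adjustment over all genes. The deposited unit is no count, so no count model was run. A gene was tested with 15 UMIs in total and at least 32.4 CPM in 2 mice (diet) or 58.6 CPM in 4 sides (axis), which is 10 UMIs in a library of median size. The pericentral and periportal scores had 20 genes each and held no member. In simulated data, the diet test recovered 92.5% of 4-fold changes and the axis test 32.8% of 2-fold changes, so most changes of that size along the axis were missed. Of unchanged genes, 0.393% were called for diet and 0% for the axis. The simulation gave all genes the same spread and held no outlying mouse such as HFD mouse 1. Shares and co-detection used the hypergeometric expectation at 1728 UMIs, the 25th percentile of UMIs per cell (Python 3.11.15, SciPy 1.17.1). The sum over pairs was used for the printed ratios after medians over sparse pairs had been seen to lie below 1 for all genes. No doublet caller was run, and the 5% of cells with most UMIs were left out as an alternative. The mouse was the replicate. The diet p-values measure the spread between mice of the same diet. Where a diet had 1 mouse left, that spread came from the mice of the other diet only. The axis p-values measure the spread of within-mouse side differences between mice. Replicate numbers were not used to pair the mice in the main test. The correlations given below cannot decide on a pairing, because the deviations of 2 LFD mice from their mean mirror each other.

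Members and gene lists were chosen with earlier results of these data known, and the promoter motifs after these. Named with values were the 4 members of highest mean CPM in each group, any past the threshold, the member of smallest p in the diet and axis comparisons, and any with no UMI. Members with few UMIs, Egr1, Klf10, Mcl1 and Tob1 were named in addition after their values were seen. Gene positions are those of GENCODE vM21 on GRCm38.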

Additional observations from a re-analysis of the deposited data

How the results depend on the processing

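The diet counts rested on few mice, and depth limits most members: 10 of 39 had fewer than 15 UMIs over all mice. For diet, 8 genes and 0 members passed in 5 mice. The gene count was 2 with no filter, 0 with 50 UMIs in total, 0 with limma-trend on CPM, 14 with the mean of log values, 2 without the top 5% of cells and 2 without marker cells, where 1 member (Dusp1) passed. Leaving out 1 mouse at a time gave 0 to 124 genes and 0 to 3 members, and leaving out HFD mice 1 and 3 gave 202 genes and 5 members. The counts without HFD mice 1 and 3 rest on 1 HFD mouse and cannot separate diet from that mouse. With the replicate block, 29 genes and 0 members passed. Same-numbered mice correlated at 0.033 and 0.066, and LFD and HFD mice 1 and 2 of unlike number at -0.033 and -0.066. For the axis, 121 genes and 1 member passed. The counts were 0 and 0 with all 5 mice and 4 and 0 with limma-trend, and leaving out 1 mouse at a time gave 36 to 165 genes and 0 to 2 members. The cause of these shifts was not tested.

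Some log2 fold changes that did not pass changed sign. Leaving out 1 mouse at a time, the diet value ranged from -0.18 to 0.94 for Junb, -1.08 to 0.047 for Cebpb, -0.40 to 0.91 for Zfp36, -0.057 to 0.88 for Btg2, -1.37 to 0.0026 for Gadd45g and -0.15 to 1.87 for Hspa8. With limma-trend Junb was at -0.31, Zfp36 at -0.36 and Btg2 at -0.27. Zfp36 was at -0.0053 with no filter, -0.0049 with the mean of log values and -0.081 with the replicate block. Without HFD mice 1 and 3 Cebpb was at 0.080 and Hspa8 at -0.22. Without marker cells Gadd45g was at 0.69 and Hspa8 at -0.11. Gadd45g was at 0.025 with the mean of log values, and Hspa8 at -0.022 in the smoothed table. On the axis, Jund was at -0.24, Klf9 at -0.16 and Nfkbia at -0.23 with all 5 mice, and Klf9 at -0.12 and Nfkbia at -0.16 with limma-trend. Without 1 mouse in turn, Jund ranged from -0.096 to -0.031 and Nfkbia from -0.16 to 0.23. The median co-detection ratio of heat shock pairs, 0.92 on average over 3 mice, was 0.79 at 1000 UMIs, where HFD mouse 3 enters with a median of 0 as a further mouse. Over the same 3 mice, an alternative added after the data were seen, it was 1.05 at 1000 UMIs and 1.16 not thinned.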
